A study of Mus musculus with 8 samples.

Results

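The distribution of tagged wild type histone H3.3 was compared with that of tagged wild type H3.1 over 245206 genomic bins of 10 kb, which cover 2452.1 Mb of the mouse build mm9. These are the 10 kb rows on chromosomes 1 to 19 and X that held a mean of at least 0.5 RPM (reads scaled to the library total) over the 4 libraries of the deposited table, out of 253926 rows in all. The cells were C3H10T1/2, a line of mesenchymal progenitors from mouse embryos of the C3H strain, and each line stably expressed 1 FLAG-HA-tagged histone, detected by chromatin immunoprecipitation and sequencing with an HA antibody. The H3.1WT and H3.3WT lines carried wild type histones. The H3.1K36M and H3.3K36M lines carried the same variants with lysine 36 replaced by methionine, and their ratio took no part in calling the classes and domains, although the filter on low bins used all 4 libraries. In every line the tagged protein was made beside the cells' own H3. The sources used here do not say what drives its expression, or whether a line is 1 clone.

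H3.1 and H3.3 are nearly identical forms of histone H3. H3.1 is made in S phase and is placed on new DNA behind the replication fork by the chaperone CAF-1, so it reaches most of the genome in dividing cells. H3.3 is made throughout the cell cycle and replaces lost nucleosomes outside replication, through HIRA at transcribed genes and regulatory elements and through ATRX and DAXX at repeats and telomeres. In principle, the ratio of one variant to the other along a chromosome can be read as a map of where nucleosomes are exchanged outside replication. Exchange was not measured here, and the ratio compares tagged histones of different lines.

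The HA libraries held 35487141 reads in H3.1WT and 46749609 in H3.3WT, with a median of 129 reads per bin in both, and the K36M libraries were of like depth, at 41705735 (H3.1K36M) and 38783917 (H3.3K36M). With 1 library per line, differences between lines have no test and no replicates behind them, and each interval below covers counting error only. Input DNA was not used here. Copy number, background reads and efficiency of the pulldown in each line therefore cannot be told apart from where the histone sits. The readout holds no expression, so the label of the cells was not checked against marker genes.

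The variant landscape had a wide low floor and a long shoulder of H3.3-rich bins. Each bin was given the log2 ratio of H3.3WT over H3.1WT, with 0.1 RPM added to both values and the median of all bins (-0.43) subtracted, so that 0 marks the median bin. The ratio ran from -0.68 at the 10th percentile to 1.45 at the 90th, and from -1.04 to 2.39 between the 1st and 99th. The fullest part of the distribution lay between -0.5 and -0.4, below the median, with 17056 bins. The SD over bins was 0.84, against 0.19 from counting error, which gives 5.19% of the variance. H3.3 varied more than H3.1: the SD of log2 RPM was 0.97 in H3.3WT and 0.49 in H3.1WT.

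**Figure D1:**
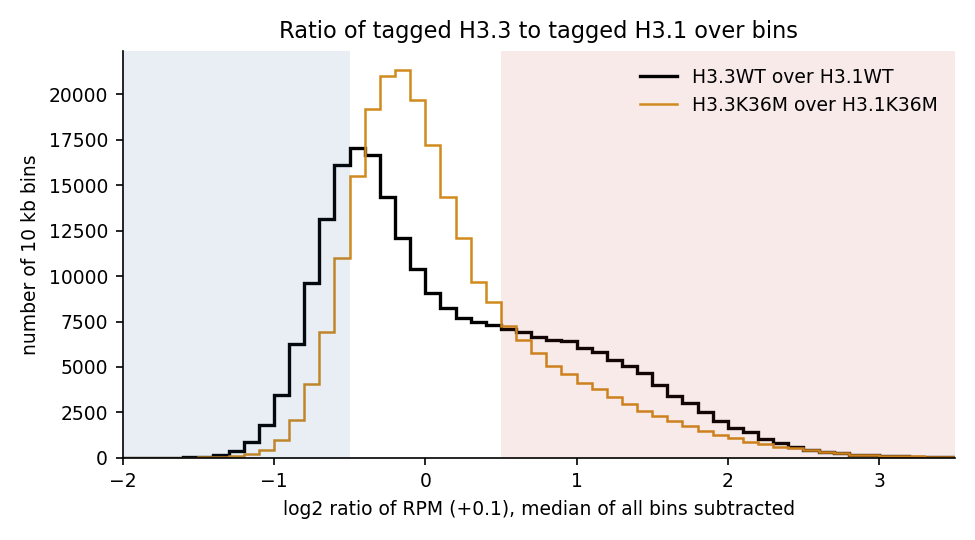
Number of 10 kb bins (y axis) by centred log2 ratio of H3.3 over H3.1 (x axis), in steps of 0.1, for the WT lines (black) and the K36M lines (orange). Red and blue shading marks the H3.3-rich and H3.3-poor classes; the WT ratio peaks between -0.5 and -0.4 and has a long shoulder to the right.

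A bin was called H3.3-rich at a centred ratio of 0.5 or more and H3.3-poor at -0.5 or less, which is 1.41-fold from the median bin. This is a rule of size. H3.3-rich bins were 33.8% of all bins (82787) and H3.3-poor bins 21.2% (51986), and the other 110433 were intermediate. Without subtracting the median there were 53458 rich and 115966 poor bins, so the split between the sides depends on the centring. At 2-fold the sides were far from equal, with 20.1% of bins (49221) above and 1.37% (3365) below. The poor threshold cuts through the fullest part of the distribution, so poor bins are the lower part of one broad floor, not a separate population. Just inside that threshold, bins with ratios from -0.55 to -0.5 held medians of 1.78 RPM of H3.3WT and 3.57 RPM of H3.1WT. Just outside it, bins between -0.5 and -0.45 held 1.85 and 3.57 RPM. At the rich threshold the step was from 4.17 RPM of H3.3WT just outside to 4.28 RPM just inside.

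Rich bins carried 58.4% of the H3.3WT signal of all bins and 32.6% of the H3.1WT signal. Their median was 6.34 RPM in H3.3WT, against 2.41 RPM in intermediate bins and 1.57 RPM in poor bins. The medians of H3.1WT in these classes were nearly level, at 3.62, 3.68 and 3.62 RPM. The classes were formed from these 2 libraries, so the values describe the rule.

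Libraries that formed no class followed the same order in H3.3. The median in H3.3K36M was 5.34 RPM in rich bins, 2.72 RPM in intermediate bins and 2.31 RPM in poor bins. The centred ratio of H3.3K36M over H3.1K36M was above 0 in 72976 of the rich bins (88.1%), in 35.8% of intermediate bins and in 19.4% of poor bins, where centring sets about even odds over all bins. By the same size rule, 62.5% of the rich bins were rich in the K36M lines too, against 24.7% of all bins, and 23.6% of the poor bins were poor there, against 10.6%. The K36M floor was shallower, with 0.328% of bins at least 2-fold below its median.

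H3.1 was lower where H3.3 was highest. Bins with a WT ratio between 0.5 and 1 held a median of 3.96 RPM of H3.1WT, those between 1.5 and 2 held 3.25 RPM, and the 1774 bins from 2.5 upward held 2.29 RPM. H3.1WT enters the ratio, which by itself gives such a fall. H3.1K36M does not, and its medians in the same bins were 3.98, 3.37 and 2.51 RPM. H3.3WT went over these steps from 4.97 to 8.04 to 12.4 RPM, and H3.3K36M from 4.09 to 7.15 to 12.3 RPM. Of these steps, H3.3WT and H3.3K36M differed least at the top one, where H3.1WT and H3.1K36M differed most.

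H3.3K36M peaks, positions that the authors deposited with no score, lay mostly in bins rich in the WT lines. Of 8375 peaks, 7539 (90.02%) had their midpoint in a rich bin, 505 in an intermediate bin and 47 in a poor bin, and 284 lay outside the bins used; rich bins were 33.8% of all bins. A peak touched 4.37% of bins with a ratio between 0.5 and 1, 19.1% between 1.5 and 2, and 47.9% from 2.5 upward. Of the rich bins, 9630 (11.6%) were touched by a peak, against 4.25% of all bins.

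Neighbouring bins were alike over about 100 kb, and the likeness had mostly gone by 1 Mb. Pearson's r between the WT ratios of 2 bins was 0.82 at 10 kb, 0.54 at 100 kb, 0.25 at 500 kb, 0.15 at 1000 kb and 0.02 at 5000 kb, over 224527 to 240862 pairs. These are descriptions across bins of the same libraries. H3.3WT alone fell in the same way, from 0.84 at 10 kb to 0.22 at 1000 kb, while H3.1WT started lower, at 0.58, and still had 0.10 at 10000 kb. The ratio of the K36M lines lost its likeness sooner, with 0.31 at 100 kb.

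**Figure D2:**
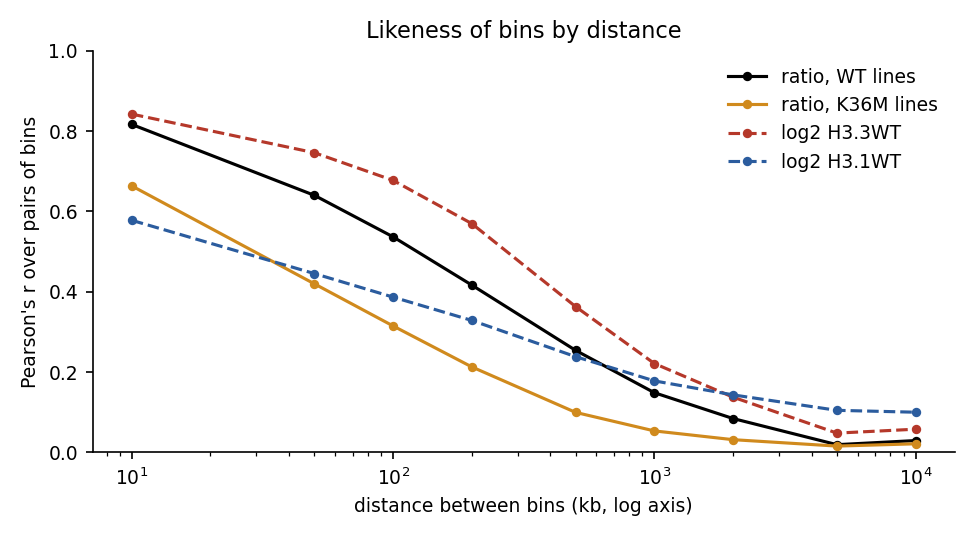
Pearson's r between the values of 2 bins (y axis) by the distance between them (x axis, kb, log scale), for the centred log2 ratio in the WT lines (black) and K36M lines (orange) and for log2 RPM of H3.3WT and H3.1WT (dashed). The WT ratio falls from 0.82 at 10 kb to 0.15 at 1000 kb.

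Passage from one class to the other was almost always through the middle. Of touching pairs that began in a rich bin, 79.4% went on to a rich bin, 20.3% to an intermediate one and 0.314% (255 pairs) straight to a poor one. A poor bin was followed by another poor bin in 55.6% of pairs and by an intermediate one in 43.9%. Rich bins were 33.8% of all bins and poor bins 21.2%, which by itself makes a rich neighbour likelier. These shares of pairs therefore do not rank the classes by how scattered they were.

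Runs of touching bins of 1 class were taken as domains, and those of at least 50 kb were measured. There were 5478 H3.3-rich domains, which covered 597.5 Mb and held 72.2% of all rich bins. Their median length was 90 kb (quartiles 60 and 130 kb), 2404 reached 100 kb, 532 reached 200 kb and 15 reached 500 kb, and the longest was 930 kb. With this centring, H3.3-poor domains were fewer and shorter: 2152 of them covered 169.3 Mb and 32.6% of the poor bins. The median poor domain was 60 kb (quartiles 50 and 90 kb), 434 reached 100 kb, 62 reached 200 kb and 2 reached 500 kb, with a longest of 530 kb. Single bins made up 54.7% of the poor runs, against 36.6% of the rich runs. An end at an unused row, where the true length is not known, was found in 1295 rich and 341 poor domains.

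The order of the classes turned without centring, which gave 5564 poor domains (median 110 kb, 936.4 Mb, longest 1520 kb) and 3181 rich ones (70 kb, 286.8 Mb, longest 680 kb). The poor lengths also depended on how a domain was drawn. The longest poor domain was 1080 kb with the wider rows added and 290 kb without chromosomes 13 and 18. When single bins of another class inside a run were bridged, the number of poor domains went from 2152 to 3883 and the longest from 530 to 1150 kb, while the rich number went only from 5478 to 5487. With a running mean over 5 bins there were 5317 rich domains with a median of 120 kb and a longest of 2150 kb, and 3236 poor domains with a median of 80 kb and a longest of 1150 kb.

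**Figure D3:**
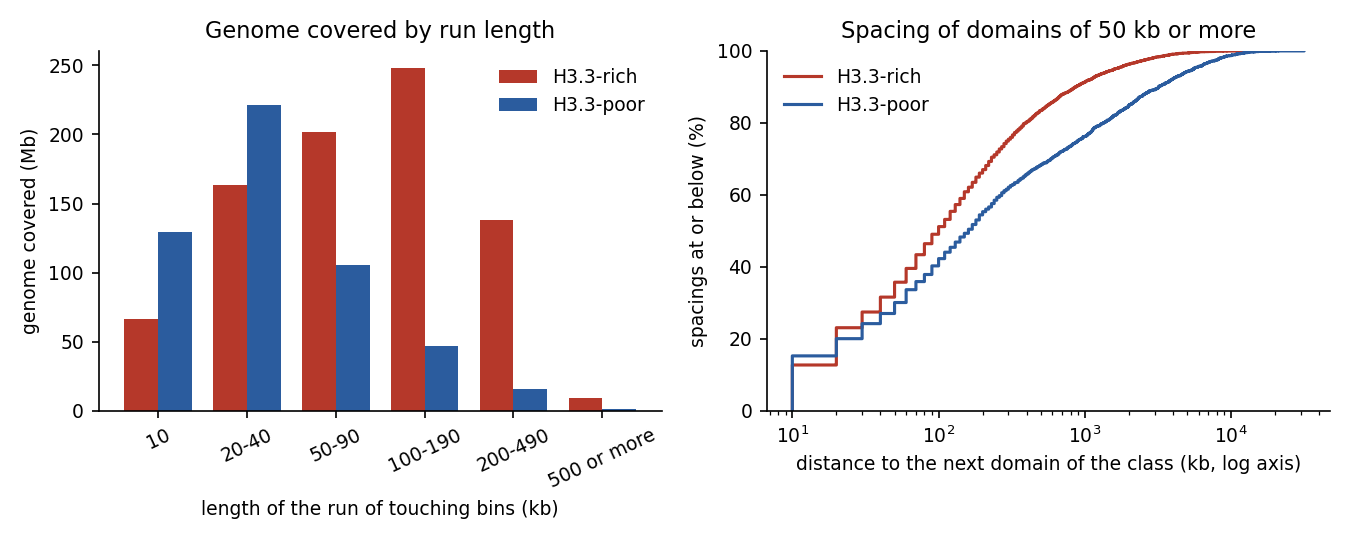
Left, genome covered (Mb) by H3.3-rich (red) and H3.3-poor (blue) runs of touching bins, by run length (kb); rich cover peaks at 100-190 kb and poor cover at 20-40 kb. Right, share of spacings (%) at or below a distance (kb, log axis) between domains of at least 50 kb; the medians are 100 kb for rich and 160 kb for poor domains.

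The spacing of rich domains was uneven. From the end of one domain to the start of the next the median distance was 100 kb, with quartiles of 30 and 300 kb. A share of 35.7% of the spacings were 50 kb or less, 694 of them a single bin, and 8.74% (477) were 1 Mb or more. Those 477 long spacings added up to 1130.6 Mb. Poor domains had a median spacing of 160 kb, quartiles of 40 and 892.5 kb, and 23.8% of spacings of 1 Mb or more. The order of the medians turned without centring (260 kb for rich and 30 kb for poor domains) and by the sign of the ratio alone (40 and 30 kb). A spacing between rich domains of at least 100 kb held a poor domain in 537 of 2782 cases (19.3%). In the other direction, 41.6% of the spacings of at least 100 kb between poor domains held a rich domain.

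In windows of 1 Mb, both extremes were found. Of 2537 windows with at least 50 bins, 386 (15.2%) had no rich bin and 803 (31.7%) had a rich share of at least 50%, of which 73 reached 80%. Windows with at least 50% of poor bins numbered 301, and 28 reached 80%. In all, 287 windows (11.3%) held at least 20% of each class, and these can be among the windows already counted.

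The longest stretches without a rich domain lay on chromosome X, and the longest without a poor domain on chromosome 11. At chrX:110300001-126280000, 15980 kb long, 0.899% of bins were rich and 30.0% poor, with means of 1.86 RPM of H3.3WT and 3.26 RPM of H3.1WT per bin. In the K36M lines the same stretch held 2.26 and 2.996 RPM. At chr11:82340001-113940000, 31600 kb long, 60.3% of bins were rich and 4.17% poor, and 129 rich domains lay in it. Its means were 6.74 RPM of H3.3WT and 4.67 RPM of H3.1WT, and 6.09 and 4.77 RPM in the K36M lines. A stretch of chromosome 1, chr1:109380001-120280000, had 3.88% rich and 54.6% poor bins and held 35 poor domains.

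Rich domains had sharp edges, and H3.1 was highest just outside them. Medians were taken over the 4116 edges of rich domains of at least 100 kb that did not end at an unused row. H3.3WT went from 7.14 RPM at 45 kb inside to 6.08 RPM in the last bin inside and 4.13 RPM in the first bin outside, and from there to 4.85 RPM at 95 kb outside. H3.1WT did the reverse, with 3.61 RPM at 45 kb inside, 4.02 RPM in the last bin inside, 4.75 RPM in the first bin outside and 3.96 RPM at 195 kb outside. The median WT ratio went from 0.95 in the last bin inside to 0.28 in the first bin outside. Further out it was 0.53 at 55 kb, 0.60 at 105 kb and 0.53 at 195 kb, past the rich threshold again. The edge was placed by the WT ratio, which favours a low H3.3WT and a high H3.1WT value in the first bin outside. In the K36M libraries, which placed no edge, H3.3K36M went from 6.09 RPM at 45 kb inside to 5.31 and then 3.73 RPM in the first bin outside. H3.1K36M had 3.64 RPM at 45 kb inside, 4.02 RPM in the last bin inside, 4.53 RPM in the first bin outside and 4.0006 RPM at 195 kb.

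Poor domains had a smaller step in H3.3 at their edges. Over 759 edges of poor domains of at least 100 kb, H3.3WT was 1.46 RPM in the last bin inside, 1.74 RPM in the first bin outside and 1.53 RPM in the bin after it. The WT ratio went from -0.75 to -0.38 and back to -0.67 over the same bins, then to -0.60 at 195 kb outside. By these medians, the ratio was back past the poor threshold at 15 kb outside. Beyond rich edges it was back past the rich threshold at 55 kb outside, so neither kind of edge bounded its class for long.

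**Figure D4:**
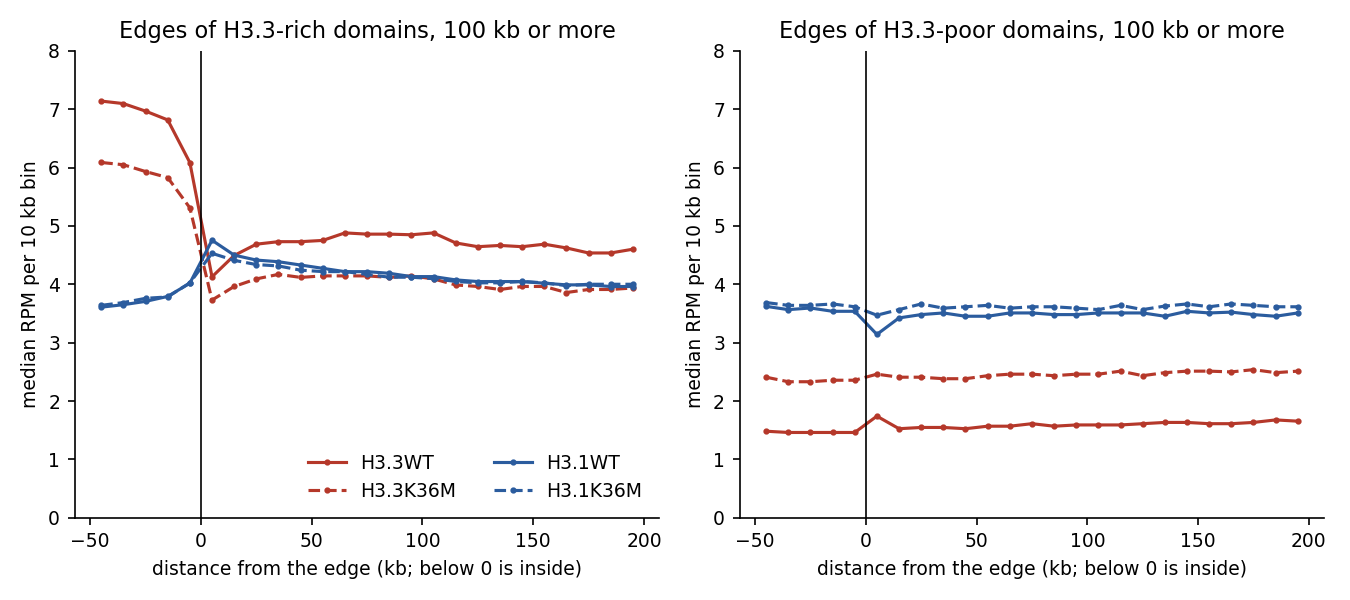
Median RPM per 10 kb bin (y axis) by distance from the edge of domains of at least 100 kb (x axis, kb; below 0 is inside), for the 4 libraries. Left, 4116 edges of H3.3-rich domains, where H3.3 is lower and H3.1 higher outside the edge in both WT and K36M lines; right, 759 edges of H3.3-poor domains, which are nearly flat.

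Longer rich domains were also richer; a long run needs bins that stay above the threshold, which by itself favours a higher mean. The median domain ratio was 0.74 for single bins, 1.17 for domains of 50 to 90 kb, 1.30 for 100 to 190 kb, 1.36 for 200 to 490 kb and 1.57 for the 15 of 500 kb or more. An H3.3K36M peak was found in 8.44% of single rich bins and in 41.2%, 62.6%, 83.6% and 93.3% of the domains in those 4 length classes; longer domains have more bins in which a peak can fall. In the K36M lines the median ratio of the same length classes was 0.40, 0.82, 0.94, 0.95 and 0.97. Poor domains deepened with length as well, from -0.63 for single bins to -0.84 for 200 to 490 kb, and a long run again favours a deeper mean. In the K36M lines the medians of those classes were -0.27 and -0.23, with -0.29 for 50 to 90 kb and -0.29 for 100 to 190 kb. Of the 62 poor domains of at least 200 kb, 47 lay on chromosomes 13 and 18, so the WT values of the longest ones mostly describe these chromosomes.

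As whole domains, 5233 of the 5478 rich domains (95.5%) had a K36M ratio above 0 and 4218 (77.0%) reached 0.5, while 9 were at -0.5 or less. Of the 2152 poor domains, 1958 (91.0%) had a K36M ratio below 0 but 329 (15.3%) reached -0.5. Of all bins, 24.7% reached 0.5 and 10.6% reached -0.5. Those are shares of single bins, whereas a domain ratio is a mean over bins, so they are no like background for domains. Bin for bin, 62.5% of rich bins reached 0.5 and 23.6% of poor bins reached -0.5. The median of H3.3 over H3.1 in rich domains was 1.24 in the WT lines and 0.88 in the K36M lines, and in poor domains -0.73 and -0.29. The WT medians come from the libraries that chose the domains, which by itself puts them further out, and the WT ratio was also the wider over all bins, with an SD of 0.84 against 0.69. Across rich domains the WT and K36M ratios had r = 0.70, and across poor domains 0.07, as a description over 5478 and 2152 domains. The WT ratios of poor domains lay between -0.5 and -1.14, and those of rich domains between 0.5 and 2.63. A narrower range by itself lowers r, so the 2 values are not directly comparable.

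Among the 5 longest rich domains, chr7:122260001-123190000 (930 kb) stood out by its K36M values. H3.3WT averaged 5.25 RPM and H3.1WT 2.86 RPM there, a 1.83-fold ratio (95% interval 1.79 to 1.88), and no bin of it held a peak. H3.3K36M averaged 2.29 RPM and H3.1K36M 2.77 RPM, which puts the centred K36M ratio at -0.01, the level of the median bin. The second longest, chr5:81440001-82210000 (770 kb), had 5.76 RPM of H3.3WT against 2.34 RPM of H3.1WT, and 3.57 RPM of H3.3K36M against 2.698 RPM of H3.1K36M. It was far from other rich domains, with 3590 kb to the one before and 4320 kb to the one after. The domain chr6:98840001-99490000 (650 kb) was rich in both pairs of lines, at centred ratios of 1.91 (WT) and 1.74 (K36M), with 6.56 RPM of H3.3WT and 6.86 RPM of H3.3K36M over 2.27 and 2.37 RPM of H3.1, which is 2.89-fold in both before centring. The remaining pair was chr11:75810001-76440000 (630 kb), with H3.3 over H3.1 at 1.97-fold (WT lines) and 1.67-fold (K36M lines), and chr15:7810001-8420000 (610 kb), at 2.03-fold and 1.42-fold. The true lengths of chr5:81440001-82210000 and chr11:75810001-76440000 are not known, since each ends at an unused row. The domain chr7:122260001-123190000 lay 10 kb from the rich domain before it and 20 kb from the one after it. Its bordering bins had WT ratios of 0.44 and 0.45, just under the threshold, and the 100 kb on either side averaged 4.60 RPM of H3.3WT. Single bins part chr11:75810001-76440000 from the next rich domain and chr15:7810001-8420000 from the one before it.

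The 5 richest domains were shorter, and all 5 were rich in the K36M lines and held a peak. At chr5:93510001-93640000 (130 kb) H3.3WT averaged 9.76 RPM and H3.1WT 2.12 RPM, a 4.61-fold ratio (4.31 to 4.94). H3.3K36M and H3.1K36M gave 10.4 and 2.01 RPM there, or 5.14-fold (4.82 to 5.50). At chr3:141890001-142070000 (180 kb) the step against the ground was steepest: H3.3WT averaged 9.78 RPM inside and 3.76 RPM in the 100 kb on either side, while H3.1WT averaged 2.18 RPM inside and 4.02 RPM outside. The folds there were 4.48 (4.23 to 4.74) in WT and 6.32 (5.98 to 6.69) in K36M. The bin before and the bin after it had WT ratios of 0.28 and 0.35, so the domain ended within 1 bin on each side. At chr7:89480001-89780000 (300 kb) 30 touching bins held between 5.59 and 16.2 RPM of H3.3WT. The domain chr19:5780001-5860000 (80 kb) carried the highest signal of the 5, with 16.4 RPM of H3.3WT and 19.4 RPM of H3.3K36M. H3.1 was at 4.08 RPM (WT) and 3.65 RPM (K36M) there, below the 6.35 and 6.36 RPM of the 100 kb on either side. A single bin parts this domain from the rich domain before it. The last, chr11:8320001-8380000 (60 kb), was 4.48-fold richer in WT and 4.18-fold in K36M. Folds of domains ranked by their ratio were chosen on the same WT reads and tend to be overstated, which their intervals do not allow for, whereas the K36M folds were not used in the ranking.

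All 5 longest poor domains and 3 of the 5 poorest lay on chromosome 18. The longest was chr18:27500001-28030000 (530 kb), where H3.3WT averaged 1.64 RPM and H3.1WT 4.44 RPM, 2.71-fold lower (2.61 to 2.81). H3.3K36M and H3.1K36M were at 2.75 and 3.80 RPM there, 1.38-fold apart. Within the domain no bin exceeded 2.19 RPM of H3.3WT. The next, chr18:81580001-82080000 (500 kb), had 1.24 RPM of H3.3WT against 3.32 RPM of H3.1WT, and 2.70 against 3.71 RPM in the K36M lines. This domain and the longest end at an unused row, so their true lengths are not known. The other long ones were chr18:28350001-28780000 and chr18:45710001-46140000 (both 430 kb) and chr18:19120001-19540000 (420 kb), at 2.54-fold to 2.70-fold lower in WT and 1.27-fold to 1.34-fold lower in K36M. These folds are before centring, where the median bin had a log2 ratio of -0.43 in the WT lines and -0.30 in the K36M lines. The centred ratios of the 5 longest ran from -0.86 to -0.95 in WT but only from -0.08 to -0.16 in K36M, near the median bin. Only single bins part chr18:28350001-28780000 from poor domains on both sides, and chr18:45710001-46140000 from chr18:45650001-45700000 (50 kb), itself among the 5 poorest. Single bins also part chr18:81580001-82080000 from the poor domain before it and chr18:19120001-19540000 from the one after it.

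Of the 5 poorest domains, the only ones with a deep K36M ratio were the pair outside chromosome 18. At chr11:55590001-55680000 (90 kb) H3.3WT averaged 1.37 RPM and H3.1WT 4.24 RPM, 3.09-fold lower (2.80 to 3.41), and H3.3K36M was 2.14-fold lower than H3.1K36M (1.95 to 2.36). At chrX:166570001-166640000 (70 kb), which lies between unused rows at the end of that chromosome, H3.3 was 2.86-fold lower in WT and 2.59-fold lower in K36M. At chr18:26940001-26990000 (50 kb) and chr18:73280001-73410000 (130 kb) H3.3 was 3.08-fold and 3.02-fold lower in WT, and 1.44-fold and 1.495-fold lower in K36M. These folds too are before centring, and the centred K36M ratios there were -0.20 and -0.28. Single bins part chr18:26940001-26990000 and chr18:73280001-73410000 from poor domains on both sides, and chr11:55590001-55680000 from the one before it.

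Whole chromosomes differed in the share of each class. The highest medians of the centred ratio were those of chromosomes 11 (0.42), 15 (0.39) and 10 (0.17), and the lowest those of chromosomes X (-0.23), 18 (-0.21) and 14 (-0.20). Chromosome 11 had 47.2% rich and 11.6% poor bins and the densest rich domains, 31.6 per 10 Mb of bins. Chromosome X had 16.0% rich bins and 9.82 rich domains per 10 Mb, although its poor share, 19.9%, was close to that of all bins. Chromosome 18 had 37.9% poor bins and 7.76% at least 2-fold below the median, against 1.37% of all bins, and chromosome 15 had 5.62% poor bins and 5 poor domains. In the K36M lines the medians of chromosomes 11, 15, 10, X, 18 and 14 were 0.13, -0.02, 0.05, -0.10, 0.08 and -0.15, so that of these chromosomes 15 and 18 lay on opposite sides of 0 in the WT and K36M lines.

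**Figure D5:**
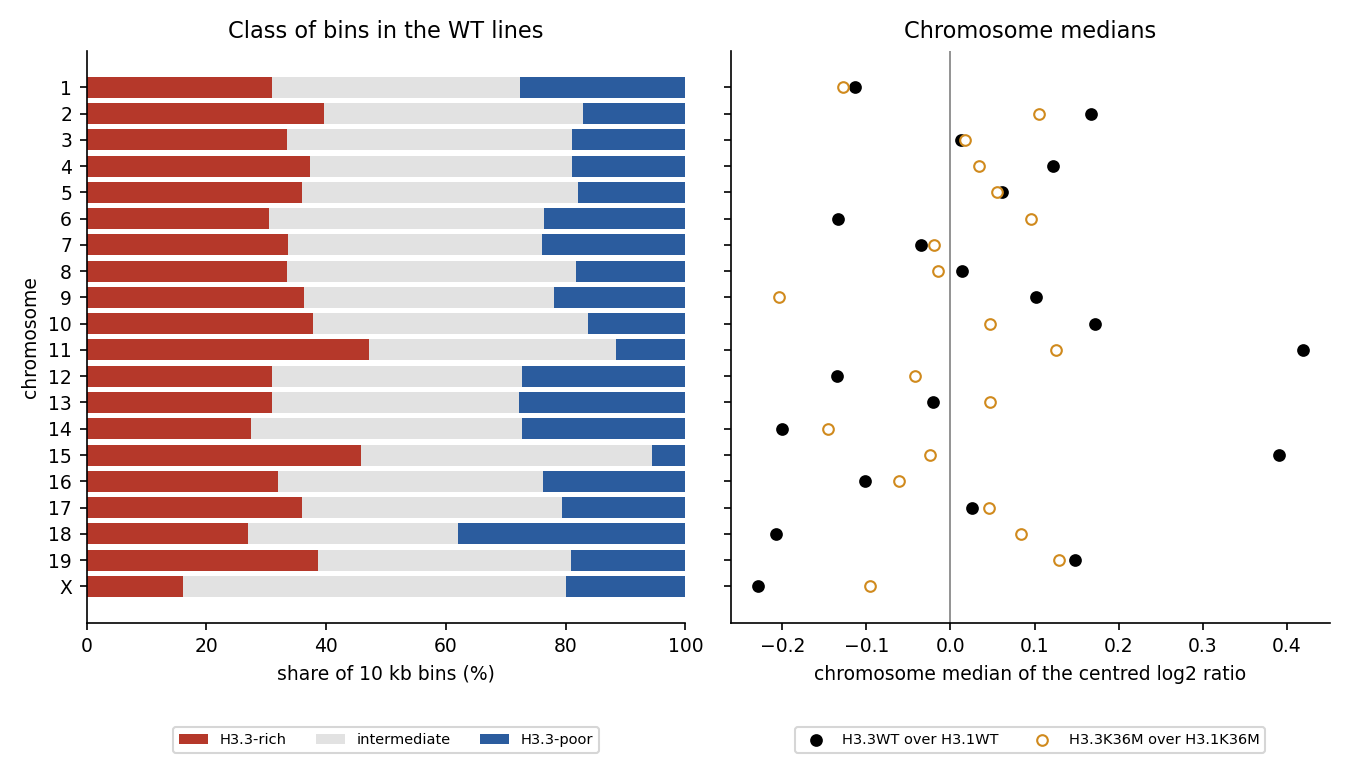
Left, share of 10 kb bins (%) that were H3.3-rich (red), intermediate (grey) and H3.3-poor (blue) in the WT lines on each chromosome; chromosome 11 has the highest rich share (47.2%) and chromosome 18 the highest poor share (37.9%). Right, chromosome medians of the centred log2 ratio in the WT lines (filled) and the K36M lines (open); chromosomes 6, 8, 9, 13, 15 and 18 lie on opposite sides of 0.

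The low end of H3.3WT stood apart on some of these chromosomes. The 10th percentile of H3.3WT was 1.98 RPM on chromosome 15, which is 1.46 times that of all bins, and 1.31 RPM on chromosome 18, 0.968 times. In H3.1WT the same quantity was 1.19 and 1.17 times that of all bins, and in H3.3K36M 1.21 and 1.19 times. On chromosome 13 it was 0.952 times in H3.3WT, 1.07 times in H3.1WT and 1.15 times in H3.3K36M. On chromosome 11, with the highest median ratio, H3.3WT was at 1.08 times and H3.1WT at 1.01 times, and on chromosome 14 they were at 1 and 1.02 times. On chromosome X the WT lines were close, with H3.3WT at 0.937 times and H3.1WT at 0.929 times. Whether copy number of chromosomes 13, 15 and 18 differed between the H3.1WT and H3.3WT lines was not tested, since input libraries were not used here.

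Where the long poor domains lay depended on the centring. Of the 62 poor domains of at least 200 kb, 24 were on chromosome 13 and 23 on chromosome 18. With the median of each chromosome subtracted in place of that of all bins, 124 reached 200 kb, of which 20 were on chromosome 13, 39 on chromosome 11 and 0 on chromosome 18. Long rich domains moved less in number, from 532 to 498, but on chromosome 11 from 55 to 15 and on chromosome 15 from 51 to 23. Chromosome 13 differed from chromosome 18 in that its median was near 0, at -0.02, while 4.96% of its bins lay at least 2-fold below the median of all bins. Within chromosome 13 the poor share was 47.9% of bins from 80 to 90 Mb and 6.20% from 90 to 100 Mb. Within chromosome 18 it ran from 16.3% (0 to 10 Mb) to 62.6% (80 to 90 Mb).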

How the data were processed

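HA ChIP libraries of 4 lines were analysed, 1 per line, as RPM per row of a table that the authors deposited. Groups follow the genotype in the labels; the title of the H3.3WT sample begins with an H3.1 name, while its genotype and the table's column name say H3.3. The protocol text names a Cbx2 antibody and the sample descriptions an HA antibody, and the descriptions were followed. Bowtie 1.0.0 and mm9 are named in the submitters' processing notes; counting in bins, duplicates and input correction are not given in the sources used here. In each deposited RPM column, 100% of values were whole multiples of 1 step within 0.01 of a read (0.0283 in H3.1WT, 0.0215 in H3.3WT), so reads were recovered; with 1 library per line no count test was possible. Rows wider than 10 kb (4029) were left out, except in 1 alternative. Peak lists hold positions with no score; caller and pooling are not given.

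Ratios, classes and domains were computed with Python 3.11.15, numpy 2.4.6, pandas 2.3.3 and scipy 1.17.1, drawn with matplotlib 3.10.9, and tested on simulated data. Domain values are means over bins. Folds compare mean RPM before centring, and their 95% intervals are exact ones (Clopper-Pearson) from recovered reads, which are not independent molecules. Named domains were the 5 longest and the 5 most extreme of at least 50 kb in each class, and the 3 highest and 3 lowest chromosomes; the longest spacings and the details of chromosomes 13 and 15 were picked with their values known. The comparison, thresholds and rules were chosen with earlier results of these data known. No gene was placed, because the RefSeq tables given are for GRCm38.p6. Coordinates are 1-based, in mm9.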

Additional observations from a re-analysis of the deposited data

Results flagged for a closer look

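At chr7:122260001-123190000, the longest H3.3-rich domain of the WT lines, the WT ratio lay well above its median and the K36M ratio near its own. The centred log2 ratio of H3.3 over H3.1 was 1.25 in the WT lines and -0.01 in the K36M lines, each from 1 library a side, and the difference was not tested. H3.3WT averaged 5.25 RPM there and H3.3K36M 2.29 RPM, while H3.1WT and H3.1K36M averaged 2.86 and 2.77 RPM. The K36M value is at the level of the median bin, too close to 0 to be placed on either side.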

How the results depend on the processing

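No paired analysis was possible because each line has 1 library and the labels give no replicate numbers. For the same reason no library could be left out. Counts moved where another setting was more than 1.5 times away, and medians where they left their exact 95% interval. The pseudocount of 0.01 RPM, no filter and the wider rows moved none of the counts of bins and domains or the median lengths and spacings, and no K36M ratio changed sign under the settings tried for it. Without centring there were 53458 rich and 115966 poor bins, 3181 rich domains (median 70 kb, spacing 260 kb) and 5564 poor domains (110 kb, spacing 30 kb). The K36M ratio in those poor domains was -0.5, but it was uncentred too. On that scale the median bin of the K36M lines is at -0.30, so the value cannot be set directly against the centred -0.29. At a threshold of 1 there were 49221 rich and 3365 poor bins, 2814 rich domains (70 kb, spacing 330 kb) and 9 poor domains (50 kb, spacing 15530 kb). The filter at the median signal left 34683 rich bins, 1692 rich domains (70 kb, spacing 610 kb) and 1071 poor domains (spacing 700 kb). A pseudocount of 1 RPM left 21579 poor bins and 308 poor domains (spacing 325 kb), put the spacing of rich domains at 130 kb, and gave K36M ratios of 0.8 in rich and -0.21 in poor domains. Bridging gave medians of 110 kb (rich, spacing 80 kb) and 80 kb (poor, 3883 domains, spacing 100 kb), and the running mean 120 kb (spacing 80 kb) and 80 kb (3236 domains, spacing 100 kb). Subtracting each chromosome's median gave poor domains of 70 kb at a spacing of 110 kb, and autosomes alone gave poor spacings of 130 kb. Added after seeing the data were 3 settings. By the sign of the ratio alone, 122603 bins were poor, with 5430 poor domains (120 kb, spacing 30 kb) and rich domains of 120 kb at a spacing of 40 kb. With H3.3WT over its own median in place of the ratio there were 3328 poor domains (80 kb, spacing 70 kb) and rich domains of 100 kb at 60 kb. Without chromosomes 13 and 18 the spacing of poor domains was 190 kb. Counting error gives an SD of 0.19 in the ratio over all bins, so a bin near a threshold can change class by counting error alone.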
